A study of Mus musculus with 137 samples.

Results

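Whole lungs of young mice taken 21 days after intratracheal bleomycin were compared with lungs taken 21 days after saline. The libraries were chosen by their labels alone, as those whose title gives bleomycin or NaCl, 21 days and young, and they are 4 bleomycin and 5 saline lungs, 9 libraries that make up 6.57% of the series. The series follows bleomycin injury and its resolution by RNA sequencing of lungs from days 0 to 56 in young and old animals. All mice were male C57BL/6J, with no transgene named. Young mice were 8 to 12 weeks old and received bleomycin sulphate at 0.7 mg/kg. Saline lungs came from mice given NaCl by the same route. The other groups used here are young lungs at day 14 (5 bleomycin, 5 saline) and day 28 (5 bleomycin, 5 saline), 4 young lungs with no instillation (day 0), and lungs of mice aged 21 months at day 21 (6 bleomycin at 0.63 mg/kg, 6 saline). Age and dose therefore change together between young and old. Each library was made from 20 mg of tissue, and the labels do not say from which lobe, nor that tissue of several mice was pooled.

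Bleomycin breaks DNA, and given into the airway it kills alveolar epithelium and capillary endothelium and draws monocytes into the tissue. Fibroblasts then become matrix-secreting cells under transforming growth factor beta (TGF-beta), which is stored in the matrix in a latent form and released by integrins and proteases. In mice a single dose leads to a scar that builds up over weeks and is later partly resolved, with macrophages and proteases removing matrix while alveolar type 2 cells renew the epithelium through a keratin 8-rich transitional state.

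The 9 libraries held 20996396 to 26023367 counts assigned to genes. In a principal component analysis of the 1000 most variable genes the first component, with 66.8% of the variance, placed the saline lungs between -28.76 and -25.03 and the bleomycin lungs between 31.46 and 35.66. The next component, with 14.5%, set bleomycin lung 4 at -32.92 and bleomycin lung 2 at 23.04, while the other 7 lungs lay between -4.73 and 7.14. Levels are given in CPM, the counts of a gene scaled to a common library size with trimmed means. Lung identity was checked by surfactant protein C (Sftpc), with 15163, 14754, 16115, 13180.0 and 16868 CPM in the saline lungs and 12863, 10584, 17191 and 17013 CPM in the bleomycin lungs. A gene is called where the adjusted p of edgeR's quasi-likelihood test is under 0.05, and every log2 fold change is bleomycin over saline with its standard error. Lung numbers only name the libraries. The p-values rest on the spread between lungs within groups, estimated over all libraries of the series and not from these lungs alone. Fits of the 9 lungs alone are named where they are used. In whole tissue, fewer cells of a type and less RNA per cell cannot be told apart, and this holds for each list of cell markers below.

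Of 18396 genes tested, 3458 were higher (18.8%) and 3220 lower (17.5%) after bleomycin, 36.3% in all, and the median log2 fold change over all genes was -0.004. Large rises outnumbered large falls: 1070 called genes were at least 2-fold higher against 698 at least 2-fold lower, and 140 were at least 8-fold higher against 16 at least 8-fold lower. All 4 bleomycin lungs lay above all 5 saline lungs in 3259 genes (17.7%) and below them in 3033 (16.5%). Counts of called members in the lists below stand beside 36.3% of all genes called, 18.8% higher and 17.5% lower.

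**Figure D1:**
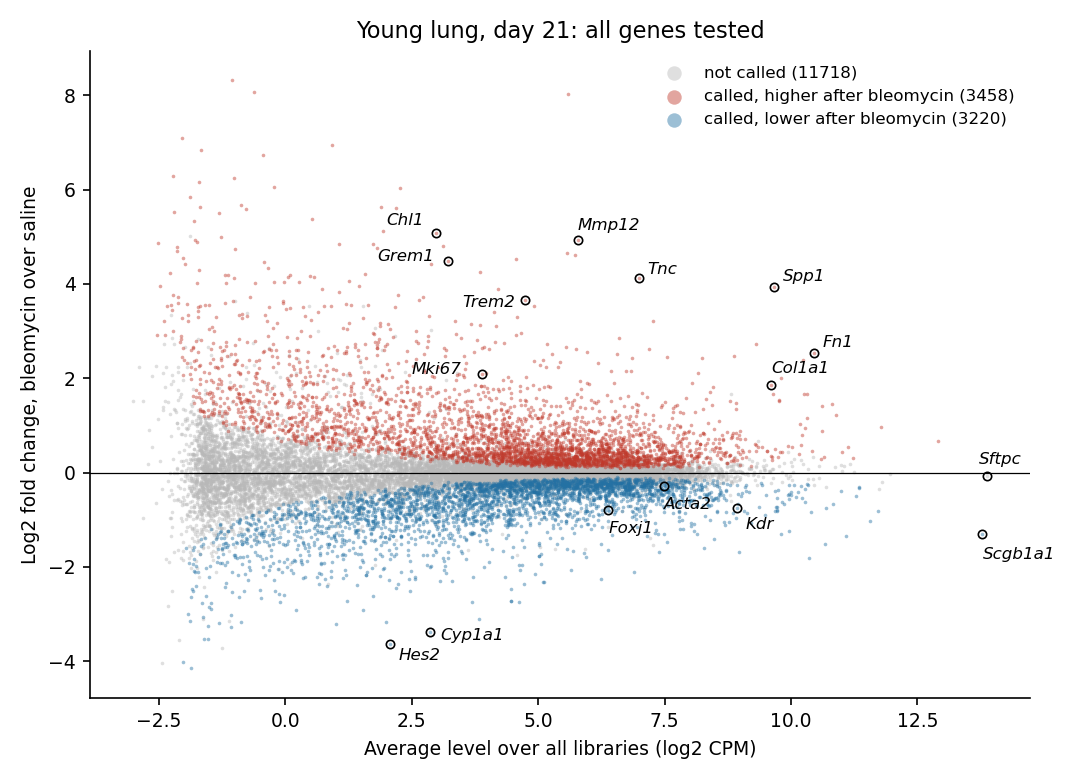
Log2 fold change of bleomycin over saline at day 21 in young lungs (vertical axis) against the average log2 CPM over all libraries of the series (horizontal axis), 1 point per tested gene. Called genes are red where higher (3458) and blue where lower (3220), the rest are grey, and the labelled genes are circled; of these Chl1 and Mmp12 lie highest and Hes2 and Cyp1a1 lowest, while Sftpc and Acta2 lie near 0.

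The steepest rises and falls were taken among well-measured genes whose groups do not overlap, so the lack of overlap comes from the choice of these genes. Chl1, a neural cell adhesion molecule of the L1 family, measured 0.863, 0.448, 0.845, 0.731 and 0.694 CPM in the saline lungs and 32.1, 37.9, 13.6 and 14.05 CPM in the bleomycin lungs. Its log2 fold change was 5.08 ± 0.72 (edgeR adjusted p = 8.93e-09). Kng2, a kininogen, rose by 4.85 ± 0.81, Thbs4 (thrombospondin 4) by 4.77 ± 0.62, Saa3 (the acute-phase serum amyloid A3) by 4.52 ± 0.64 and Cemip, which degrades hyaluronan, by 4.42 ± 0.68 on the log2 scale. Sprr1a, a cornified envelope protein that is also a marker of injured alveolar cells, rose by 4.22 ± 0.47 and Ereg (epiregulin, a ligand of the EGF receptor) by 4.07 ± 0.65. Megf11, a membrane protein with repeated EGF-like domains, rose by 3.96 ± 0.58.

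Among the steepest falls, Hes2, a helix-loop-helix repressor, measured 7.13, 6.54, 6.85, 7.35 and 7.12 CPM in the saline lungs and 0.598, 0.238, 0.623 and 0.821 CPM in the bleomycin lungs, a log2 fold change of -3.63 ± 0.46 (edgeR adjusted p = 2.18e-10). Cyp1a1, the cytochrome P450 induced through the aryl hydrocarbon receptor, measured 5.72, 11.8, 7.16, 16.9 and 11.2 CPM in the saline lungs and 0.640, 0.238, 0.862 and 2.41 CPM in the bleomycin lungs, a change of -3.38 ± 0.62. Bleomycin lung 4 held the most of both genes in its group. Asgr1 (asialoglycoprotein receptor) changed by -3.22 ± 0.52, Cst8 (a cystatin) by -3.16 ± 0.45, Slc5a12 (a lactate transporter) by -2.92 ± 0.54, Gria1 (a glutamate receptor subunit) by -2.74 ± 0.42 and Kcnj3 (a potassium channel) by -2.72 ± 0.73. Bex2 and Ankrd63 changed by -2.72 ± 0.40 and -2.72 ± 0.41. Nppa and Sln, atrial heart muscle genes, are given with the other heart genes below.

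Collagens rose together. All 17 fibrillar and minor collagen chains tested were called higher, against 18.8% of all genes, with a median log2 fold change of 1.50 and a range of 0.47 to 3.56. Col3a1, the type III collagen chain (ENSMUSG00000026043, GRCm38 chromosome 1, 45311538 to 45349706, plus strand), measured 958, 926, 777, 857 and 768 CPM in the saline lungs and 3051, 3211, 2301 and 2306 CPM in the bleomycin lungs, a log2 fold change of 1.66 ± 0.25 (edgeR adjusted p = 3.49e-08). Col1a1 (GRCm38 chromosome 11, 94936224 to 94953042, plus strand) measured 503, 493, 386, 446 and 412 CPM in the saline lungs and 1986, 1933, 1296 and 1248 CPM in the bleomycin lungs. The bleomycin lungs were not alike: lungs 1 and 2 held more of both collagens than lungs 3 and 4, and even the lowest lay above every saline lung. The largest changes were in rare chains, Col24a1 with 0.554 ± 0.154 CPM after saline and 6.60 ± 1.81 CPM after bleomycin (3.56 ± 0.48) and Col15a1, a chain of vessel-associated basement membrane zones, with 17.4 ± 2.14 CPM after saline and 81.7 ± 19.9 CPM after bleomycin (2.24 ± 0.33). Values after ± beside CPM are SDs over 5 saline and 4 bleomycin lungs. Col5a2, which sets fibril diameter together with other type V chains, changed by 1.91 ± 0.30.

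Most matrix glycoproteins rose as well, some of them steeply, and a few did not. Of 25 matrix glycoproteins and proteoglycans 19 were higher and 1 lower, with a median of 1.22. Tnc, tenascin C (GRCm38 chromosome 4, 63959785 to 64047015, minus strand), an adhesion-modulating protein of wounds, measured 27.2, 23.5, 22.7, 16.7 and 19.98 CPM in the saline lungs and 463, 538, 296 and 249 CPM in the bleomycin lungs, a change of 4.13 ± 0.47. Every bleomycin lung held several times as much as the highest saline lung. Fn1, fibronectin, measured 683, 567, 484, 615 and 547 CPM in the saline lungs and 3942, 4490.1, 2865 and 2127 CPM in the bleomycin lungs, a change of 2.53 ± 0.36. Spp1, osteopontin, a glycoprotein made by fibrosis-associated macrophages, measured 111.7, 140.3, 119.8, 180.0 and 145.3 CPM in the saline lungs and 1741, 2346, 2925 and 1466 CPM in the bleomycin lungs, a change of 3.93 ± 0.40. Eln, elastin, chosen here after its values were seen, measured 573 ± 50.3 CPM after saline and 2981 ± 326 CPM after bleomycin (2.38 ± 0.32). The member that fell was Ogn, osteoglycin, a small leucine-rich proteoglycan, with 354, 377, 359.8, 401 and 390.2 CPM in the saline lungs and 179, 145.8, 138.8 and 152 CPM in the bleomycin lungs (-1.29 ± 0.14, edgeR adjusted p = 4.40e-13). Postn, periostin, which is often used as a mark of activated fibroblasts, measured 457, 472, 447, 470.0 and 450.2 CPM in the saline lungs and 487, 480.5, 405 and 423 CPM in the bleomycin lungs, and the groups overlapped (-0.03 ± 0.11, not called).

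**Figure D2:**
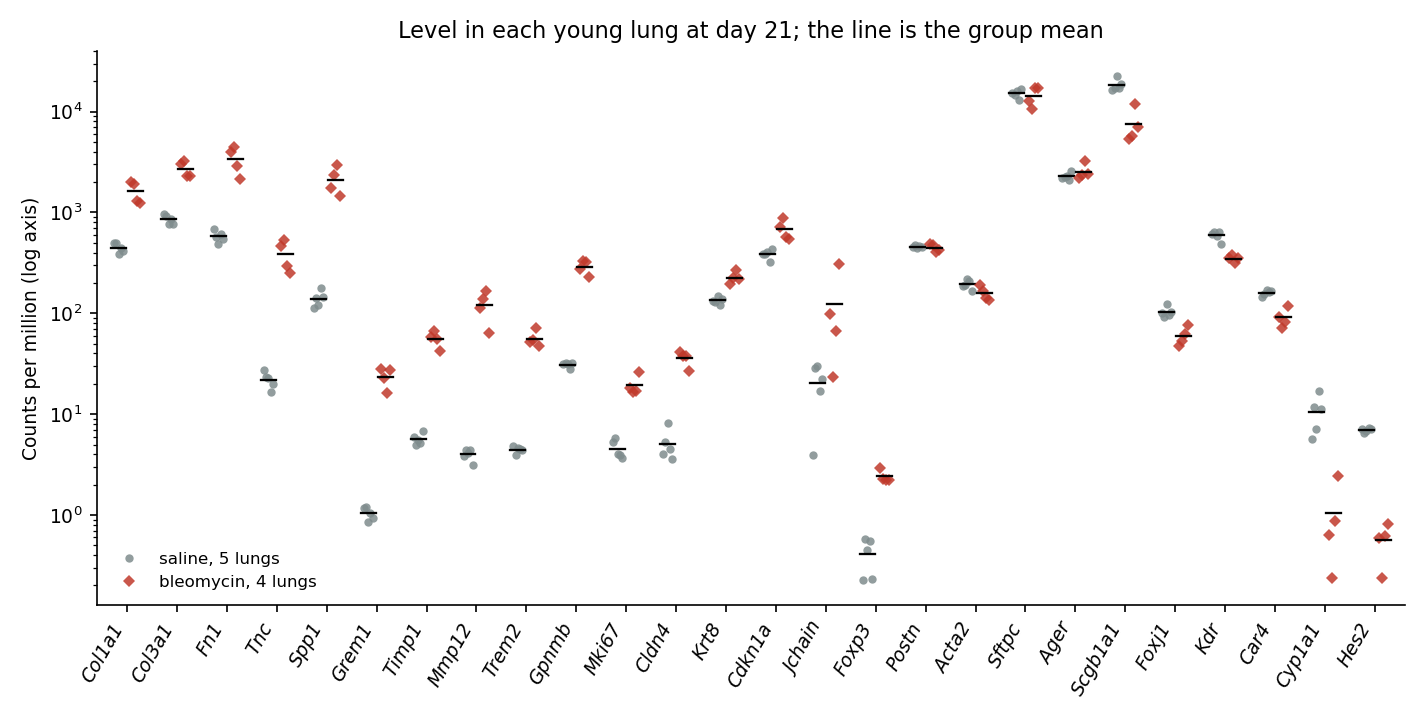
CPM on a log axis (vertical) for 26 genes (horizontal) in each of the 5 saline lungs (grey circles) and 4 bleomycin lungs (red diamonds) of young mice at day 21; black lines are group means. The groups are apart for Tnc, Spp1, Mmp12 and Trem2 and lie over each other for Postn, Acta2, Sftpc and Ager.

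Enzymes that fold, trim and cross-link collagen rose in part. Of 22 genes 15 were higher and 1 lower, with a median of 0.51. The cross-linking lysyl oxidase Loxl2 changed by 1.52 ± 0.26 and Lox by 1.20 ± 0.29, with Lox at 73.2 ± 6.91 CPM after saline and 168 ± 24.4 CPM after bleomycin. Adamts2, which removes the amino-terminal propeptide of procollagen, changed by 1.63 ± 0.21 and Bmp1, which removes the carboxy-terminal one, by 0.90 ± 0.13. The prolyl hydroxylase subunit P4ha3 measured 1.39 ± 0.382 CPM after saline and 17.6 ± 3.96 CPM after bleomycin (3.66 ± 0.51), whereas the more abundant P4ha1 (-0.35 ± 0.17) and P4ha2 (0.02 ± 0.13), named after their values were seen, were not called. Of 20 basement membrane genes 15 were higher and none lower (median 0.63). Col4a1 and Col4a2, the ubiquitous type IV collagen pair, changed by 1.41 ± 0.18 and 1.17 ± 0.17. Lama1, a laminin chain of the embryo that is rare in adult lung, measured 11.7, 8.29, 5.78, 7.08 and 8.88 CPM in the saline lungs and 65.8, 82.6, 50.97 and 53.7 CPM in the bleomycin lungs (2.92 ± 0.36).

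Most proteases that degrade matrix rose. Of 20 tested 17 were higher and 1 lower, with a median of 2.03. Mmp12, macrophage elastase (GRCm38 chromosome 9, 7344381 to 7369499, plus strand), measured 3.86, 4.39, 4.14, 4.43 and 3.10 CPM in the saline lungs and 112.8, 140.2, 168 and 64.3 CPM in the bleomycin lungs, a change of 4.93 ± 0.54 (edgeR adjusted p = 1.51e-12). Mmp2, the fibroblast gelatinase, measured 170.4, 147.5, 139.6, 155 and 134.9 CPM in the saline lungs and 731, 742, 533 and 569 CPM in the bleomycin lungs, a change of 2.11 ± 0.20. Bleomycin lung 4 held less Mmp12 than the other bleomycin lungs, and no lung of either gene crossed into the other group. Mmp2 was named for its small p, and 17 of the 20 proteases lay above without overlap, against 17.7% of all genes. The lysosomal cathepsins rose as well, Ctss by 2.48 ± 0.23 and Ctsb by 1.51 ± 0.15. Mmp9, the neutrophil gelatinase, was the member that fell, with 14.3, 63.9, 17.8, 28.1 and 10.04 CPM in the saline lungs and 13.9, 9.62, 8.96 and 8.35 CPM in the bleomycin lungs (-1.39 ± 0.39). The highest saline value of Mmp9 was that of lung 2, the groups overlapped, and without that lung Mmp9 was at -0.78 and not called (edgeR adjusted p = 0.108). Mmp10 had no read in any saline lung and reached 1.55 CPM after bleomycin, at least 57.1-fold higher against a floor of 3 counts over the saline group; it was chosen after its values were seen, and with it at this bound the list's median is again 2.03. Of 13 protease inhibitors and plasminogen regulators 7 were higher and 1 lower (median 1.28). Timp1, an inhibitor of metalloproteases, measured 5.95, 4.97, 5.56, 5.12 and 6.75 CPM in the saline lungs and 58.6, 66.4, 55.2 and 42.1 CPM in the bleomycin lungs, a change of 3.29 ± 0.46. Serpine2, a serine protease inhibitor, changed by 1.28 ± 0.21 and the acute-phase Serpina3n by 1.29 ± 0.29.

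Start regions of the metalloproteases are shown because the activator protein 1 (AP-1) site near the start of these genes is their best known control element. AP-1 sites were searched as TGACTCA on both strands, from 250 bases before to 50 after the gene start in RefSeq, build GRCm38.p6. Of 27025 genes with such a window 5.95% held the site, and 4 of the 13 proteases with a window did (Mmp3, Mmp10, Mmp12 and Mmp13), of which 3 were called higher and Mmp3, named after its values were seen, was not (0.31 ± 0.21). Of the 9 proteases without the site, 8 were called higher. The capitals mark the site in the stretches below, read 5′ to 3′ on the strand of the gene.
Mmp12 (chr9:7347315-7347351, plus strand): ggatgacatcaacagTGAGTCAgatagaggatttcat
Mmp13 (chr9:7272464-7272500, plus strand): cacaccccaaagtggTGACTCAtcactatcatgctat
Mmp3 (chr9:7445761-7445797, plus strand): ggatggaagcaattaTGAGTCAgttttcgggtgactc

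Genes that make and release TGF-beta rose, while the receptors split. Of 18 ligands and activators 15 were higher and 1 lower, with a median of 0.83. Tgfb1 measured 86.4, 94.05, 90.6, 76.97 and 83.5 CPM in the saline lungs and 115.7, 116.9, 114.1 and 121.5 CPM in the bleomycin lungs, a modest change of 0.44 ± 0.08 without overlap (edgeR adjusted p = 5.20e-06). Tgfb3 (1.04 ± 0.15) and Tgfb2 (0.85 ± 0.13) changed more. Ltbp2 and Ltbp3, proteins that anchor latent complexes or elastic fibres in the matrix, changed by 1.82 ± 0.27 and 0.84 ± 0.11. Of 16 receptors and inhibitors 4 were higher and 7 lower. Tgfbr1, the signalling receptor, rose (0.62 ± 0.09), and so did Pmepa1, a feedback inhibitor (1.18 ± 0.20). Tgfbr3, betaglycan, fell, with 135.1 ± 6.43 CPM after saline and 70.6 ± 6.98 CPM after bleomycin (-0.94 ± 0.13), and Smad6, an inhibitory SMAD of BMP signalling, changed by -1.46 ± 0.23. Of 13 target genes 7 were higher and 2 lower (median 0.81). Tgfbi (1.25 ± 0.20) and Bhlhe40 (1.41 ± 0.21) were higher, and the smooth muscle target Tagln, named after its values were seen, was at -0.23 ± 0.19 and not called.

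Bone morphogenetic protein (BMP) signalling genes were mixed, with more falls than rises: 5 of 20 were higher and 8 lower. Grem1, gremlin 1, a secreted BMP antagonist, was among the largest rises of the whole lung, with 1.18, 1.21, 0.845, 1.05 and 0.925 CPM in the saline lungs and 28.1, 22.8, 16.1 and 27.5 CPM in the bleomycin lungs (4.49 ± 0.68, edgeR adjusted p = 3.99e-08). The lowest bleomycin lung was still well above the highest saline lung. Bmpr2, the type II receptor, measured 1033, 1077, 927, 977 and 945 CPM in the saline lungs and 566, 659, 502 and 535 CPM in the bleomycin lungs (-0.81 ± 0.13), and Chrdl1, another antagonist, changed by -1.25 ± 0.17. In the WNT list 10 of 26 were higher and 7 lower. The secreted antagonist Sfrp1 measured 25.97, 24.96, 21.1, 22.7 and 26.4 CPM in the saline lungs and 172, 174, 110.95 and 111.2 CPM in the bleomycin lungs (2.55 ± 0.32), and the ligands Wnt5a and Wnt7b changed by 1.14 ± 0.18 and 1.26 ± 0.19. Axin2, a feedback target of canonical WNT signalling, chosen after its values were seen, changed by -0.44 ± 0.11. Among 22 growth factor ligands 6 were higher and 8 lower. Igf1 measured 26.5, 25.001, 19.6, 17.6 and 18.7 CPM in the saline lungs and 146.1, 144.7, 130.5 and 106.4 CPM in the bleomycin lungs (2.62 ± 0.31), Pdgfc changed by 1.69 ± 0.24 and Areg, amphiregulin, by 1.76 ± 0.29. Igfbp3, the main binding protein of circulating IGF, moved the other way, with 120.5, 125.4, 130.7, 136.9 and 119.1 CPM in the saline lungs and 33.97, 23.4, 19.3 and 28.7 CPM in the bleomycin lungs (-2.26 ± 0.26), and Igfbp6 changed by -1.29 ± 0.21. Of the 9 YAP and TAZ targets tested 2 were higher and 3 lower, with Axl at 0.89 ± 0.13 and Lats2 at -0.50 ± 0.10.

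**Figure D3:**
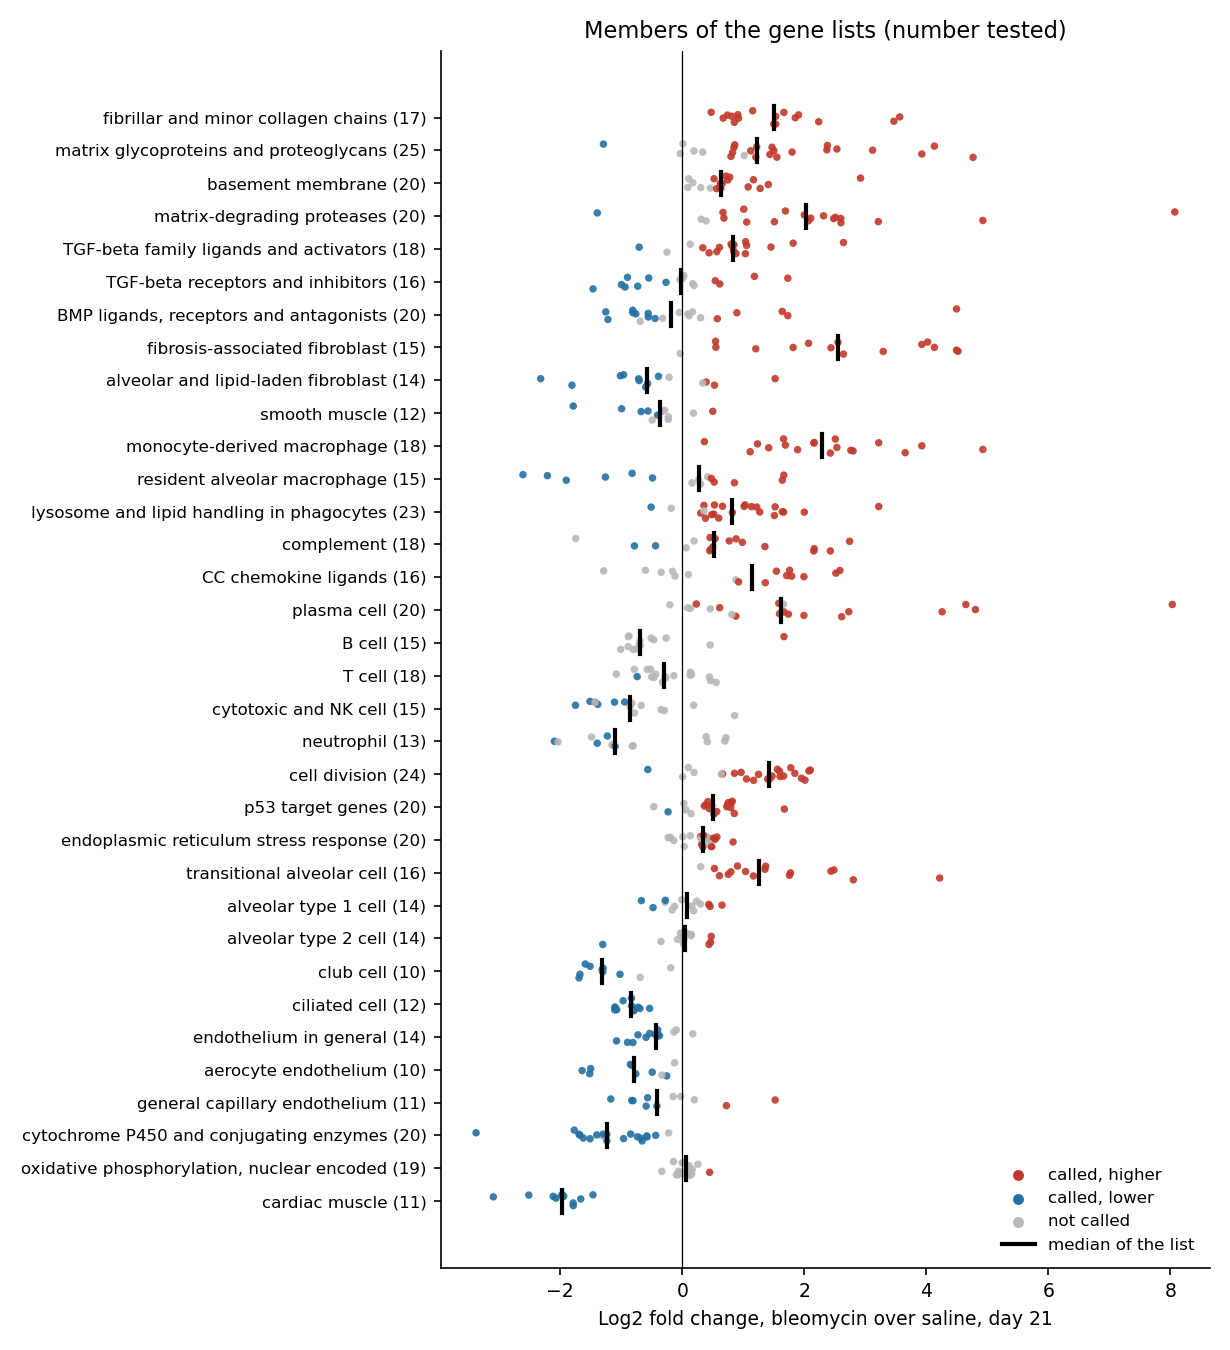
Log2 fold change of bleomycin over saline at day 21 (horizontal axis) for each tested member of 34 gene lists (vertical axis, number tested in brackets), red where called higher, blue where called lower and grey where not called; the black bar is the list's median. All collagen and monocyte-derived macrophage members lie right of 0 and all ciliated cell and heart members left of it, and points are spread vertically only to separate them.

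Mesenchymal markers moved apart. Of 15 markers of fibrosis-associated fibroblasts 14 were higher and none lower, with a median of 2.55; Cthrc1, which marks the collagen-rich fibroblasts of scarred lung, measured 4.18, 5.69, 5.43, 4.84 and 5.64 CPM in the saline lungs and 17.6, 12.5, 9.82 and 7.53 CPM in the bleomycin lungs (1.20 ± 0.30). Several of these markers, Spp1, Lcn2 and Saa3 among them, are also made by macrophages or epithelium. Of 14 markers of resting alveolar fibroblasts 9 were lower and 3 higher. Inmt, an indole N-methyltransferase of alveolar fibroblasts, measured 1556, 1623, 1820.4, 1843 and 1753 CPM in the saline lungs and 515, 388, 493 and 569 CPM in the bleomycin lungs (-1.81 ± 0.27), and the amino acid transporter Slc7a10 measured 59.2, 47.99, 45.01, 64.6 and 46.2 CPM in the saline lungs and 13.5, 7.87, 7.14 and 13.7 CPM in the bleomycin lungs (-2.32 ± 0.43). The 3 that rose include Lpl, lipoprotein lipase (1.52 ± 0.20), and Plin2, both lipid-handling genes that macrophages also express. Contractile genes were mostly lower or not called. Acta2, smooth muscle alpha actin, measured 185, 191, 219, 209 and 165 CPM in the saline lungs and 193, 165, 142.8 and 134.4 CPM in the bleomycin lungs, with overlapping groups (-0.29 ± 0.20, not called), and 5 of 12 smooth muscle markers were lower and 1 higher. Cnn1 changed by -0.99 ± 0.25 and Myh11 by -0.67 ± 0.18. Among 11 pericyte markers 4 were higher and 2 lower, with Rgs5, a regulator of G protein signalling, at 20.3 ± 2.88 CPM after saline and 51.7 ± 13.1 CPM after bleomycin (1.35 ± 0.29). Of 11 adventitial fibroblast markers 2 were higher and 2 lower, 36.4% called, near the 36.3% of all genes. Mfap5 was at 1.44 ± 0.21 and Pi16 at -1.12 ± 0.23.

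Macrophage genes were among those with the smallest p-values. All 18 markers of monocyte-derived macrophages were called higher, with a median of 2.29. Several are shared with other lists: Fn1 and Spp1 are given above among matrix glycoproteins, and Spp1 is also a fibroblast list marker. Trem2, a lipid-sensing receptor of scar-associated macrophages (GRCm38 chromosome 17, 48346401 to 48354147, plus strand), measured 4.86, 3.90, 4.58, 4.52 and 4.44 CPM in the saline lungs and 51.6, 55.0, 71.2 and 46.9 CPM in the bleomycin lungs, a change of 3.65 ± 0.28 (edgeR adjusted p = 4.45e-20). The bleomycin lungs were close to each other and every one held far more than any saline lung. Ms4a7, a marker of macrophages derived from monocytes, measured 4.95, 3.72, 5.65, 4.98 and 5.04 CPM in the saline lungs and 29.5, 34.7, 35.8 and 32.4 CPM in the bleomycin lungs (2.76 ± 0.27). Of 23 lysosomal and lipid-handling genes of phagocytes 20 were higher and 1 lower (median 0.82). Apoe, which carries cholesterol out of cells, measured 596, 591, 619.8, 604 and 649 CPM in the saline lungs and 1781, 1964, 2045 and 1942 CPM in the bleomycin lungs (1.66 ± 0.16), and Ctsd, a lysosomal protease, changed by 1.9997 ± 0.22. Gpnmb, a lysosomal glycoprotein, changed by 3.22 ± 0.33. The complement component C1q, made by tissue macrophages, rose in all 3 chains, with C1qa at 2.16 ± 0.23, C1qb at 2.43 ± 0.24 and C1qc at 2.16 ± 0.23, and 13 of 18 complement genes were higher and 2 lower.

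Markers of resident alveolar macrophages did not move as a group: 5 of 15 were higher and 6 lower. Fabp1, a fatty acid binding protein, measured 4.90, 4.84, 5.34, 4.29 and 6.75 CPM in the saline lungs and 0.683, 0.278, 0.814 and 1.69 CPM in the bleomycin lungs (-2.61 ± 0.46), and Atp6v0d2, a proton pump subunit of macrophages and osteoclasts, 41.3, 44.9, 43.1, 38.3 and 46.9 CPM in the saline lungs and 115.8, 116.5, 164 and 138.8 CPM in the bleomycin lungs (1.64 ± 0.20). Car4, which is in this list and in the aerocyte list, fell. Of 12 interstitial macrophage markers 3 were higher and 3 lower, 50% called against 36.3% of all genes. Cd209f, a lectin, changed by -2.01 ± 0.35 and Cbr2, a carbonyl reductase also abundant in airway cells, by -1.35 ± 0.26. Monocyte markers had 5 higher and 2 lower of 14, also 50% called, with Fcgr4 at 1.84 ± 0.34. Of 15 dendritic cell markers 8 were higher and 2 lower; Itgax, the CD11c integrin that macrophages share, changed by 1.61 ± 0.16 and Fscn1, fascin, by 1.82 ± 0.19. In the type 2 response list 6 of 14 were higher and 1 lower (Ear1, named after its values were seen, whose reads may be shared with near-identical copies). Retnla measured 23.4, 26.6, 36.4, 25.9 and 28.7 CPM in the saline lungs and 138, 188, 371 and 122.6 CPM in the bleomycin lungs (2.86 ± 0.55) and Arg1, arginase 1, 1.04, 1.30, 1.33, 1.51 and 1.06 CPM in the saline lungs and 7.94, 10.3, 12.4 and 4.30 CPM in the bleomycin lungs (2.80 ± 0.75).

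Chemokine and cytokine genes were mostly higher. Of 16 CC chemokines 9 were higher and none lower, led by Ccl2, the ligand of the monocyte receptor CCR2, with 1.91, 2.02, 2.85, 1.74 and 1.30 CPM in the saline lungs and 6.66, 13.4, 17.1 and 10.1 CPM in the bleomycin lungs (2.58 ± 0.37), and by Ccl9 (2.52 ± 0.30), Ccl12 (1.99 ± 0.32) and the abundant Ccl6 (1.71 ± 0.22). Of 12 CXC and CX3C chemokines 7 were higher and 1 lower. The interferon-induced Cxcl10 changed by 2.27 ± 0.38 and the scavenger-receptor ligand Cxcl16 by 1.04 ± 0.12, and the endothelial chemokine Cx3cl1 fell by -0.64 ± 0.10 on the log2 scale. Of 28 interleukins, TNF family members and their receptors 20 were higher and 1 lower. The IL-6 family cytokine Lif changed by 1.86 ± 0.26 and Osmr, a receptor of that family, by 0.997 ± 0.13. Il1rn, the IL-1 receptor antagonist, changed by 1.66 ± 0.25.

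Lymphocyte genes did not share a direction. None of 18 general T cell markers was called higher and 1, Lef1, was lower (-0.74 ± 0.26); the count was 0 without bleomycin lung 2 or 3, and in a fit of the 9 lungs alone 7 were called, 3 higher and 4 lower. Foxp3, the factor that defines regulatory T cells, measured 0.227, 0.582, 0.445, 0.548 and 0.231 CPM in the saline lungs and 2.94, 2.27, 2.20 and 2.22 CPM in the bleomycin lungs (2.55 ± 0.41, edgeR adjusted p = 3.23e-07), and 9 of 17 regulatory and helper T cell genes were higher and 5 lower. The lower members include Gata3 (-0.79 ± 0.22) and Rora (-0.45 ± 0.08), which other cell types also express. Tnfrsf4 (OX40) changed by 1.18 ± 0.21. Cytotoxic and natural killer cell genes fell in 6 of 15 and rose in none. The share called was 40%, against 36.3% of all genes, of which 17.5% were lower. The count was 3 without bleomycin lung 1, bleomycin lung 2 or saline lung 3, and 10 in the fit of the 9 lungs alone. The perforin gene Prf1 was at 7.58, 6.59, 6.45, 5.39 and 4.81 CPM in the saline lungs and 2.39, 1.51, 2.06 and 2.70 CPM in the bleomycin lungs (-1.51 ± 0.50). Ncr1, the NKp46 receptor, was at -1.43 ± 0.46. Of 15 B cell markers 1 was higher (Ighm) and none lower, with a median of -0.70. Ighm lost its call when any 1 of bleomycin lungs 3 and 4 and saline lungs 1, 2, 4 and 5 was left out. In the fit of the 9 lungs alone 3 markers were called, all lower. The mean log2 CPM of the members, minus that of the saline lungs, was -0.99, -1.51, -0.15 and 0.25 in bleomycin lungs 1 to 4. In young lungs 12 members were lower at day 14 and 11 at day 28, and in old lungs 8 at day 21, with none higher. The shares of all genes called lower in these comparisons were 19%, 14.5% and 21.4%, in the same order. Cd79a, a chain of the B cell receptor, measured 15.1, 13.3, 13.96, 17.5 and 9.48 CPM in the saline lungs and 5.80, 3.46, 10.5 and 14.9 CPM in the bleomycin lungs (-0.69 ± 0.45, not called).

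Antibody genes rose, most of all in 1 lung. Of 20 plasma cell genes 14 were higher and none lower, with a median of 1.63. Jchain, the joining chain of secreted IgA and IgM, measured 3.95, 28.5, 29.8, 16.9 and 22.3 CPM in the saline lungs and 97.9, 23.4, 66.6 and 309 CPM in the bleomycin lungs (2.61 ± 0.62), and the groups overlapped. Ighg2c, an IgG2 heavy chain constant gene, measured 0.318, 4.17, 0.934, 0.548 and 0.555 CPM in the saline lungs and 0.768, 4.33, 54.5 and 1319 CPM in the bleomycin lungs. Bleomycin lung 4 held the most of Ighg2c and Jchain by far. The list's score, the mean log2 CPM of its members, was 2.58 to 3.59 in the saline lungs and 3.64 to 6.20 in the bleomycin lungs, with bleomycin lung 4 at 6.20. Without this lung the edgeR test called 6 plasma cell genes, and Ighg2b, at 4.65 ± 0.95 with all lungs, was at 2.14 and not called (adjusted p = 0.0784). Reads of near-identical immunoglobulin genes may be split between them by the counting, so single chains are uncertain. Sdc1, syndecan 1, which epithelium also makes, changed by 0.61 ± 0.10 and Slamf7 by 1.74 ± 0.26.

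Neutrophil genes were lower in 4 of 13 and higher in none, and this depends on single lungs. The list's score was 1.60 to 3.57 in the saline lungs and 1.76 to 2.07 in the bleomycin lungs, with saline lung 2 highest at 3.57. Without saline lung 2 the edgeR test called 2 members, both higher, and the median moved from -1.10000 to -0.18. Without bleomycin lung 4 it called 2, both lower, and without saline lung 1 or 5 it called 6, all lower. Retnlg, a granule protein, measured 5.45, 18.7, 7.52, 8.77 and 3.84 CPM in the saline lungs and 3.71, 4.01, 4.84 and 2.56 CPM in the bleomycin lungs. Mast cell, basophil and eosinophil genes had 1 higher and 4 lower of 12, all but Siglecf below 2 CPM, and 2 calls were left without bleomycin lung 2; Cma1, mast cell chymase, measured 0.969 ± 0.119 CPM after saline and 0.347 ± 0.0807 CPM after bleomycin (-1.47 ± 0.47).

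**Figure D4:**
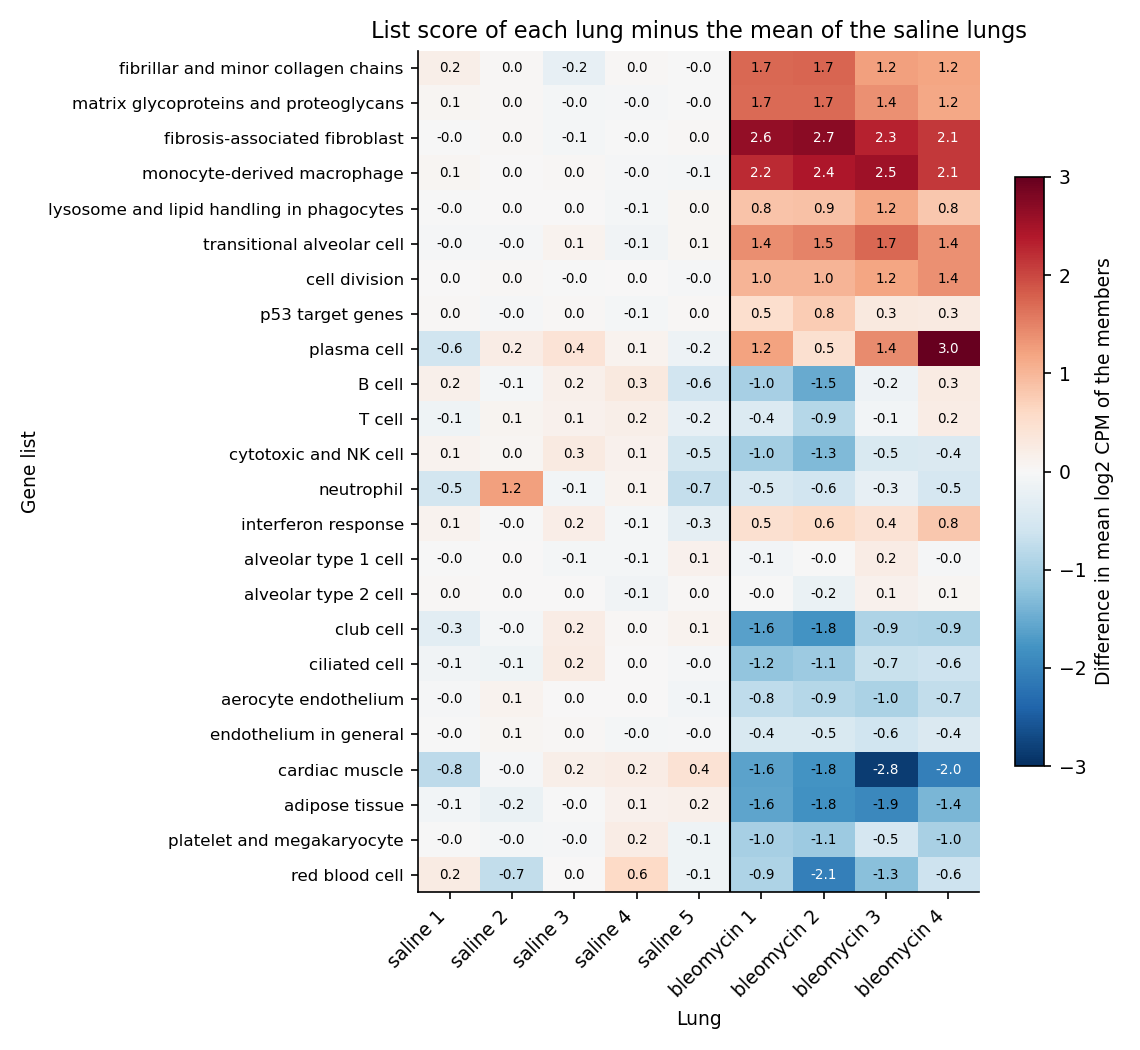
Score of 24 gene lists (rows) in each of the 9 lungs (columns), given as the mean log2 CPM of the members minus the mean of the 5 saline lungs; red is higher and blue lower, and the number is printed in each cell. The plasma cell row is highest in bleomycin lung 4 and the neutrophil row in saline lung 2, and the heart muscle row is lowest in the 4 bleomycin lungs.

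Cell division genes were higher at day 21 but at low levels. Of 24 19 were higher and 1 lower (Bub1), with a median of 1.42. Mki67, a nuclear protein of cycling cells, measured 5.27, 5.78, 4.05, 3.93 and 3.70 CPM in the saline lungs and 18.2, 16.6, 17.1 and 26.1 CPM in the bleomycin lungs (2.10 ± 0.46, edgeR adjusted p = 1.09e-04), and Cdk1, the mitotic kinase, 1.14, 0.627, 0.845, 0.868 and 0.833 CPM in the saline lungs and 3.67, 3.54, 3.88 and 3.52 CPM in the bleomycin lungs (2.08 ± 0.40). For both genes the groups were apart, but Cdk1 was named for its small p. Over the list 19 of 24 members lay above without overlap and 1 below, against 17.7% and 16.5% of all genes. The start regions of Mki67 and Cdk1 are shown because genes of this group share the cell cycle homology region, through which they are repressed outside the cycle; it was searched as TTTGAA on both strands. It was in 11 of the 19 members with a RefSeq window (9 higher, none lower) and in 20.2% of the 27025 genes. Of the 8 members without it 5 were higher. The capitals mark the region.
Mki67 (chr7:135716457-135716510, minus strand): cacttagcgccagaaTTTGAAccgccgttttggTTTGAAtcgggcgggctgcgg
Cdk1 (chr10:69352913-69352998, minus strand): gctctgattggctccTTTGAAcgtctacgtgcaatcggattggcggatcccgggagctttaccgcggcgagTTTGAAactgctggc

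Targets of the DNA damage factor p53 were higher in 15 of 20 and lower in 1, with a median of 0.50. Cdkn1a, the p21 inhibitor of the cell cycle (GRCm38 chromosome 17, 29090976 to 29100727, plus strand), measured 389, 391, 404, 323 and 435 CPM in the saline lungs and 719.5, 874, 573 and 547 CPM in the bleomycin lungs (0.81 ± 0.15, edgeR adjusted p = 9.41e-06). Ccng1, cyclin G1, measured 258, 273, 266, 247 and 273 CPM in the saline lungs and 462, 524, 476 and 366 CPM in the bleomycin lungs (0.80 ± 0.12), and Zmat3, an RNA-binding p53 target, changed by 0.75 ± 0.12. Sesn2, sestrin 2, changed by 0.74 ± 0.14. Bleomycin lungs lay above saline lungs without overlap for these 4 genes, but Ccng1, Zmat3 and Sesn2 were named for their small p. Over the list 13 of 20 members lay above without overlap and 1 below, against 17.7% and 16.5% of all genes. A p53 half-site (the 10-base consensus, both strands) was present near the start of 8 of the 16 members with a window (7 higher, 1 lower) and of 9.55% of all genes. Of the 8 members without it 5 were higher. The half-sites of Cdkn1a, Mdm2 (the ubiquitin ligase that degrades p53, 0.38 ± 0.09) and Ccng1 are in capitals, shown because these are classical targets that rose together here; Mdm2 was named after its values were seen.
Cdkn1a (chr17:29090891-29090952, plus strand): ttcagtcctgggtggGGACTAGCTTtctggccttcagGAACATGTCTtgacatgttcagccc
Mdm2 (chr10:117710920-117710959, minus strand): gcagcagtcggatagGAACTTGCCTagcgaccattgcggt
Ccng1 (chr11:40755447-40755486, minus strand): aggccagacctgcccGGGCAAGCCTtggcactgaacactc

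Senescence-associated genes were higher in 11 of 15 and lower in 1, which is Igfbp3. Cdkn2a, the p16 and ARF locus, measured 0.545, 1.03, 0.489, 0.959 and 0.972 CPM in the saline lungs and 2.99, 2.07, 3.21 and 1.69 CPM in the bleomycin lungs (1.63 ± 0.36), at a low level in every lung. Glb1, lysosomal beta-galactosidase, changed by 0.77 ± 0.11. Mmp12 and Ccl2 are members of this list as well as of the lists above.

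Chaperones of the endoplasmic reticulum rose by small amounts. Of 20 genes of the endoplasmic reticulum stress response 11 were higher and none lower (median 0.34). Dnajb11, a co-chaperone, measured 100.03, 99.96, 92.6, 91.3 and 99.3 CPM in the saline lungs and 134.7, 131.2, 125.4 and 145.2 CPM in the bleomycin lungs (0.47 ± 0.08), Calr, calreticulin, changed by 0.54 ± 0.10, Canx, calnexin, by 0.30 ± 0.05 and Pdia3, a disulphide isomerase, by 0.43 ± 0.08. Stress-branch genes named after their values were seen were not called, with Ddit3 (CHOP) at -0.14 ± 0.17, Atf4 at -0.19 ± 0.09 and Xbp1 at 0.13 ± 0.10. The element through which stress induces these chaperones, CCAAT followed after any 9 bases by CCACG, which includes a CCAAT box, was found on either strand near the start of 7 of the 18 members with a window (5 higher, none lower) and of 0.137% of all genes. Of the 11 members without it 5 were higher. The element is in capitals in the stretches of Hspa5, the chaperone BiP (0.51 ± 0.17), Pdia6 (0.32 ± 0.11) and Creld2 (0.40 ± 0.19, not called), the last of which holds it on the opposite strand; these 3 genes were named after their values were seen.
Hspa5 (chr2:34772010-34772058, plus strand): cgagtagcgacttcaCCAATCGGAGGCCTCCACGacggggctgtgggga
Pdia6 (chr12:17266476-17266524, plus strand): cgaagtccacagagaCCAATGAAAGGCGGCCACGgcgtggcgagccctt
Creld2 (chr15:88819505-88819553, plus strand): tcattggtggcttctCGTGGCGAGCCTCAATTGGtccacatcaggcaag

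Of 22 interferon-stimulated genes 8 were higher and none lower. The share called, 36.4%, was near that of all genes (36.3%), of which 18.8% were higher and 17.5% lower. The count was 5 without bleomycin lung 4 or without saline lung 5, and 5 with no filter on low counts. In the fit of the 9 lungs alone 16 were called, 13 higher and 3 lower. Oas1a, an antiviral synthetase, changed by 1.34 ± 0.26, Mx1 by 1.25 ± 0.26 and Cxcl9 by 3.15 ± 0.79. Of 11 genes of MHC class II presentation 8 were higher and none lower, with the invariant chain Cd74 at 1036, 1012, 1047, 855 and 857 CPM in the saline lungs and 1688, 1549.7, 1934 and 1964 CPM in the bleomycin lungs (0.89 ± 0.16).

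Genes of the transitional state rose, while markers of mature alveolar epithelium were called about as often as all genes (36.3%). Of 14 alveolar type 1 markers 3 were higher and 3 lower. Ager, the receptor that marks type 1 cells, measured 2211, 2243, 2289.9, 2091 and 2594 CPM in the saline lungs and 2199, 2362, 3234 and 2404 CPM in the bleomycin lungs (0.16 ± 0.17, not called). Hopx, a type 1 cell homeodomain protein, changed by -0.67 ± 0.19 and Pdpn, podoplanin, by 0.65 ± 0.17. Of 14 type 2 markers 3 were higher and 1 lower, with Sftpc at -0.08 ± 0.21 (not called); the lysozyme Lyz1 was the one that fell (-1.30 ± 0.33). Of 16 transitional markers 15 were higher and none lower, with a median of 1.26. Krt8, keratin 8, measured 133.7, 128.7, 147.04, 122.01 and 139.5 CPM in the saline lungs and 196, 222, 268 and 219 CPM in the bleomycin lungs (0.75 ± 0.15, edgeR adjusted p = 1.22e-05). Cldn4, a tight junction claudin, measured 3.996, 5.33, 8.09, 4.52 and 3.56 CPM in the saline lungs and 41.3, 37.4, 37.4 and 26.6 CPM in the bleomycin lungs (2.80 ± 0.44). Neither gene overlapped between the groups. Lcn2, lipocalin 2, changed by 2.44 ± 0.30 and Clu, clusterin, by 1.35 ± 0.15. Surfactant and lipid secretion genes had 4 higher and none lower of 10, with Sftpd at 0.56 ± 0.15. Of 21 sterol and fatty acid synthesis genes 9 were higher and 3 lower, with the desaturase Scd1 at 2397, 3106, 1871, 2353 and 2149 CPM in the saline lungs and 4424, 4011, 5727 and 4281 CPM in the bleomycin lungs (0.96 ± 0.20).

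Club and ciliated cell genes fell. Of 10 club cell markers 8 were lower and none higher, with a median of -1.31. Scgb1a1, the secretoglobin that club cells release into the airway lining, measured 16298, 17337, 22603, 17292 and 18867 CPM in the saline lungs and 5319, 5742, 11884 and 7004 CPM in the bleomycin lungs (-1.30 ± 0.25, edgeR adjusted p = 8.62e-06). All 12 ciliated cell markers were lower (median -0.83), including Foxj1, the factor that switches on motile cilia, with 101.03, 92.7, 124.3, 96.8 and 103.8 CPM in the saline lungs and 47.1, 53.1, 62.6 and 76.8 CPM in the bleomycin lungs (-0.79 ± 0.25), and Tppp3, a microtubule protein, with -1.09 ± 0.26. The saline lungs lay above the bleomycin lungs for these 3 genes, of which Tppp3 was named for its small p. This held for 11 of the 12 ciliated and 7 of the 10 club cell markers, against 16.5% of all genes. Of 14 mucous and basal cell genes 2 were called lower, Lypd2 and Spdef, and none higher. The share called in this list was 14.3%, against 36.3% of all genes, and its median was 0.39. Enzymes that process foreign compounds, many of them club cell products, were lower in 18 of 20 and higher in none (median -1.24). Cyp4b1, a lung P450, measured 739, 701, 776, 750.4 and 799 CPM in the saline lungs and 232, 222, 233 and 256 CPM in the bleomycin lungs (-1.68 ± 0.22), Fmo1, a flavin monooxygenase, changed by -1.40 ± 0.19 and Gsta3, a glutathione transferase, by -1.69 ± 0.24. How much airway each piece of tissue held is not given in the labels.

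Capillary genes fell while a few vessel genes rose. Of 14 general endothelial markers 11 were lower and none higher (median -0.43). Ramp2, the adrenomedullin co-receptor, measured 342, 366, 354, 309 and 375 CPM in the saline lungs and 171, 156, 144.2 and 192 CPM in the bleomycin lungs (-1.08 ± 0.17) and Eng, endoglin, 879, 913, 807, 854 and 824 CPM in the saline lungs and 496, 477, 381 and 484 CPM in the bleomycin lungs (-0.90 ± 0.16). Bleomycin lung 3 had the lowest Eng of its group. Aerocyte markers, from the large gas-exchange cells of the capillary, were lower in 8 of 10 and higher in none (median -0.79). Car4, carbonic anhydrase 4, measured 145.5, 156, 171, 162 and 168 CPM in the saline lungs and 91.8, 71.4, 82.8 and 117.9 CPM in the bleomycin lungs (-0.82 ± 0.14), Kdr, the VEGF receptor 2, changed by -0.76 ± 0.16 and Ednrb, the endothelin B receptor, by -1.64 ± 0.26. General capillary markers were lower in 6 and higher in 2 of 11, with Plvap at -0.59 ± 0.16 and the angiopoietin receptor Tek at -0.81 ± 0.12. In the arterial and venous list 5 rose and 4 fell of 14. Ackr1, the chemokine receptor of venules, measured 0.136, 0.269, 0.0890, 0.411 and 0.139 CPM in the saline lungs and 4.05, 4.09, 4.46 and 2.56 CPM in the bleomycin lungs (4.15 ± 0.52), and Efnb2, an arterial ephrin, changed by -0.85 ± 0.14. The lymphatic factor Prox1 measured 6.27, 6.27, 4.63, 5.34 and 5.04 CPM in the saline lungs and 15.2, 17.9, 12.02 and 14.5 CPM in the bleomycin lungs (1.44 ± 0.24), whereas Lyve1, which macrophages and capillaries also express, changed by -0.94 ± 0.25. NOTCH pathway genes were lower in 8 and higher in 1 of 14, with the endothelial ligand Dll4 at -0.61 ± 0.13 and the mural cell effector Heyl at 0.71 ± 0.15.

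Metabolic lists changed little or in part. Glycolysis genes were higher in 10 of 17 and lower in none (6 with no filter on low counts), with hexokinase 2 (Hk2) at 0.69 ± 0.13 and Ldha, lactate dehydrogenase A, at 0.57 ± 0.13. Nuclear genes of oxidative phosphorylation were higher in 1 of 19, Cox5a, and lower in none; without bleomycin lung 3 Cox5a was not called and Ndufs1 was called lower, and in the fit of the 9 lungs alone 2 were higher. Genes encoded in the mitochondrion were lower in 4 of 7 (2 when any 1 of bleomycin lungs 1, 2 and 4 and saline lungs 2 to 5 was left out, and 6 without bleomycin lung 3), with mt-Nd2 at -0.62 ± 0.16. Of 18 antioxidant genes 9 were higher and 5 lower, with the heme oxygenase Hmox1 at 1.17 ± 0.19 and the cystine transporter Slc7a11 at 1.81 ± 0.29. Coagulation genes were higher in 9 and lower in 1 of 16; F7, factor VII, measured 20.7, 19.2, 19.97, 19.7 and 18.2 CPM in the saline lungs and 66.7, 59.2, 82.02 and 71.7 CPM in the bleomycin lungs (1.84 ± 0.23). Clock genes moved both ways, with Arntl at -0.95 ± 0.14 and Cry1 at -1.05 ± 0.17 against Dbp at 2.03 ± 0.43, and the labels give no hour of tissue collection. Of 16 immediate early genes 3 were higher and 4 lower, with Fosl1, a subunit of AP-1, at 0.363, 0.314, 0.445, 0.183 and 0.231 CPM in the saline lungs and 1.75, 2.31, 1.82 and 1.01 CPM in the bleomycin lungs (2.47 ± 0.44).

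Heart, fat and nerve genes were lower as well. All 11 heart muscle genes were lower (median -1.96), with scores of 4.16 to 5.37 in the saline lungs and 2.10 to 3.35 in the bleomycin lungs. Tnnt2, cardiac troponin T, measured 42.999, 74.7, 87.3, 87.1 and 88.4 CPM in the saline lungs and 21.5, 22.1, 11.9 and 16.8 CPM in the bleomycin lungs (-2.07 ± 0.51), and Nppa, the atrial natriuretic peptide, 5.58, 14.8, 12.9, 18.3 and 39.6 CPM in the saline lungs and 4.23, 2.54, 0.0479 and 1.54 CPM in the bleomycin lungs (-3.09 ± 1.05). Saline lung 1 was the lowest of its group for Tnnt2, and Nppa lost its call without bleomycin lung 3 or saline lung 5. Actc1 and Sln belong to this list, and Actc1 is also counted among the smooth muscle markers. Which cells the fall of Actc1 comes from was not tested. Fat genes were lower in 6 of 10 (2 without bleomycin lung 2 or 3), with scores of 2.04 to 2.41 in the saline lungs and 0.33 to 0.89 in the bleomycin lungs, and the adipocyte droplet protein Plin1 measured 4.59, 7.39, 8.18, 8.59 and 7.45 CPM in the saline lungs and 1.45, 1.23, 0.814 and 2.17 CPM in the bleomycin lungs (-2.35 ± 0.78). Nerve and glia genes were lower in 5 of 8 (3 without bleomycin lung 3). Of 10 platelet genes 3 were lower (0 without bleomycin lung 2, 1 without bleomycin lung 1 or 4 or saline lung 4, 6 in the fit of the 9 lungs alone), with Ppbp at -1.99 ± 0.71. None of the 9 red blood cell genes was called by edgeR, with Hbb-bs at -1.53 ± 0.997; 0 had an unadjusted p under 0.05, DESeq2 called 1, and the edgeR fit of the 9 lungs alone called 5, 1 higher and 4 lower. The part that differences in dissection or in retained blood take in the other lists was not tested.

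The day 21 changes were set beside those of young lungs at day 14 and day 28, each with its own saline lungs, to ask where day 21 stands in the course of repair. At day 14 edgeR called 7188 genes (39.1%) and at day 28 5371 (29.2%). The difference between the day 21 and day 14 effects was itself called for 4 genes (0.0217%), all lower at day 21. Sult1a1, a phenol sulphotransferase, changed by 0.25 ± 0.16 at day 14 and -0.88 ± 0.17 at day 21, a difference of -1.13 ± 0.24 (edgeR adjusted p = 0.0433). Slc25a34, a mitochondrial carrier of low level named after its values were seen, changed by 0.58 ± 0.29 at day 14 and -1.52 ± 0.34 at day 21. Myrip, a myosin and RAB27A linker of secretory granules, changed by 0.77 ± 0.19 and -0.53 ± 0.20, and Tollip, an adaptor of Toll-like receptor signalling, by 0.18 ± 0.04 and -0.10 ± 0.04. At day 14 the bleomycin lungs were uneven for these genes, with Sult1a1 at 47.6 ± 25.6 CPM (SD, n = 5) against 40.02 ± 2.74 CPM after saline. The count was 0 when any 1 of day 21 bleomycin lungs 1 and 4 and day 21 saline lungs 2, 3 and 5 was left out. It was 2 without day 21 saline lung 1, and DESeq2 called 18. No day 14 lung was left out.

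No gene passed for the difference between day 28 and day 21 by edgeR, where 1058 had an unadjusted p under 0.05 and DESeq2 called 4. The medians of several lists differed between the 3 times, which was not tested. The collagen list had medians of 1.28 at day 14, 1.50 at day 21 and 0.93 at day 28. Cell division genes had medians of 1.90, 1.42 and 0.57, with 22, 19 and 6 members higher, against 20.1%, 18.8% and 14.7% of all genes. Endoplasmic reticulum stress genes went the other way, with 3, 11 and 15 members higher and medians of -0.01, 0.34 and 0.42. Spp1 changed by 4.12 ± 0.40, 3.93 ± 0.40 and 3.57 ± 0.39, Foxp3 by 2.16 ± 0.38, 2.55 ± 0.41 and 1.04 ± 0.38, and Scgb1a1 by -1.01 ± 0.23, -1.30 ± 0.25 and -1.19 ± 0.23 at the 3 times. None of these single genes was called for a difference between times. The 3 smallest p-values for day 28 against day 21, none of them called, were those of Apobr (-0.71 ± 0.18), a macrophage receptor for lipoproteins, Slc2a6 (-1.55 ± 0.40), a lysosomal sugar transporter, and Slc16a3 (-0.87 ± 0.23), a lactate transporter.

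**Figure D5:**
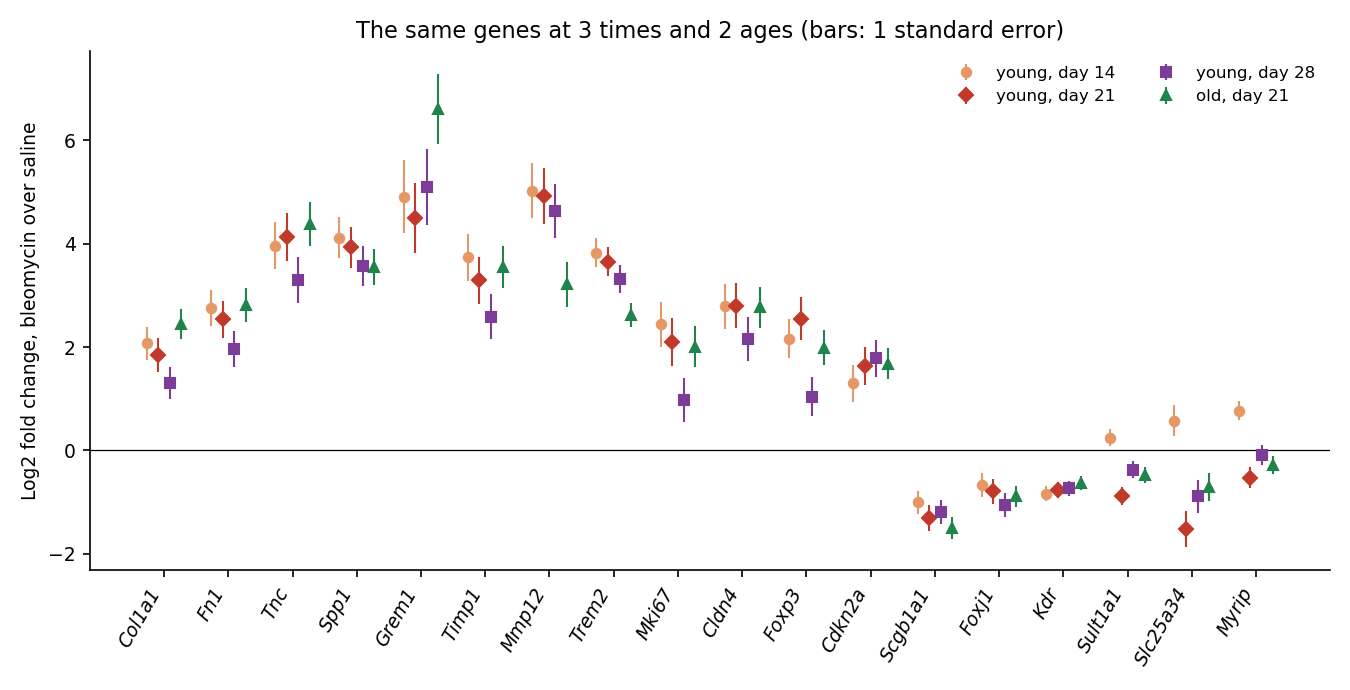
Log2 fold change of bleomycin over saline (vertical axis, bars are 1 standard error) for 18 genes (horizontal axis) in young lungs at day 14 (orange circles), day 21 (red diamonds) and day 28 (purple squares) and in old lungs at day 21 (green triangles). Each point has its own saline group; of the genes shown Sult1a1, Slc25a34 and Myrip are those called for a difference between day 21 and day 14.

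In lungs of mice aged 21 months, 7815 genes (42.5%) were called at day 21, and the difference between the old and the young effect was called for none by edgeR, with 1506 genes at an unadjusted p under 0.05. DESeq2 called 10 and a fit of the 4 groups alone 32. The old lungs had more animals per group and a lower dose. The collagen list had a median of 1.87 in old lungs against 1.50 in young ones. Col1a1 changed by 2.45 ± 0.29 in old and 1.85 ± 0.32 in young lungs, a difference of 0.60 ± 0.43 (edgeR adjusted p = 0.749). Trem2 changed by 2.62 ± 0.24 and 3.65 ± 0.28, a difference of -1.04 ± 0.36 (edgeR adjusted p = 0.38). Cell division genes had a median of 1.55 in old and 1.42 in young lungs. The smallest p-values belonged to N4bp3 (0.73 ± 0.15), the lipid transporter Mfsd2a (-1.35 ± 0.30) and the adhesion protein Tns4 (-1.20 ± 0.26), and none was called.

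The order of the 4 bleomycin lungs differed between lists. On the first principal component lungs 3 and 4 lay farthest from saline, at 35.26 and 35.66 against 31.46 and 32.52 for lungs 1 and 2. Lungs 1 and 2 had the higher collagen list scores, 1.73 and 1.74 above the saline mean, and lungs 3 and 4 stood at 1.23 and 1.18. The club cell list ran the other way, at -1.62 and -1.80 in lungs 1 and 2 and -0.92 and -0.95 in lungs 3 and 4. Lung 3 was farthest from saline for the monocyte-derived macrophage (2.54), transitional cell (1.73), aerocyte (-0.95) and heart muscle (-2.85) scores, and lung 4 for cell division genes. With 4 lungs these orders are descriptions without a test.

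Saline lungs of day 21 were set beside young lungs with no instillation to show how far the controls stand from untreated tissue. Of all genes 0.696% were called by edgeR, 1 of them higher in the saline lungs (Mfn1, 0.00544%) and the rest lower. Most of these calls depend on a single untreated lung. In 85.8% of the lower genes untreated lung 3 held the highest value of its group, and without it, in an alternative chosen after seeing the data, 8 genes were called. Mmp12 measured 6.34, 5.55, 349 and 6.55 CPM in the 4 untreated lungs and 3.86, 4.39, 4.14, 4.43 and 3.10 CPM in the saline lungs, and Retnla measured 45.6, 34.4, 894 and 82.4 CPM and 23.4, 26.6, 36.4, 25.9 and 28.7 CPM. Untreated lung 3 alone was high for both genes. Skeletal muscle genes were high in untreated lung 1, with Acta1 at 42.9, 1.08, 1.22 and 0.0478 CPM over the untreated lungs. The bleomycin comparisons use saline lungs only, so untreated lungs enter them through the shared estimate of the spread and not through a group mean.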

How the data were processed

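Total RNA of lung tissue was sequenced as poly(A) mRNA libraries (TruSeq, per the labels' protocols), each from 20 mg of tissue. The authors deposited 1 table of counts per gene for all 137 libraries, raw counts with no normalization. Per the submitters' processing notes, the tools were FastQC 0.11.5, RSEM 1.3.0, STAR 2.5.2 and 2.5.2b, bcl2fastq 2.20.0.422 and featureCounts 1.5.1, with the builds GRCm38, GRCh38 and hg38 named without a role. The annotation release, the use of strand and the treatment of reads with several matches are not given in the sources used here, so antisense, overlapping and near-identical genes (immunoglobulins, haemoglobins) are uncertain. Symbols and positions come from the GENCODE M21 annotation of GRCm38, which named 18348 of the 18396 genes tested.

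Libraries were grouped by their titles. All 137 libraries, in 26 groups, were fitted together in edgeR 4.0.16 (R 4.3.3, limma 3.58.1) after filtering (a minimum count of 10 and a total of 15) and TMM scaling, with the quasi-likelihood F test, 111 residual degrees of freedom and Benjamini-Hochberg adjustment. Standard errors were taken as |log2 fold change| / sqrt(F). A list score is the mean log2 CPM (prior count 2) of the members tested. The 9 libraries held 20996396 to 26023367 counts, so genes under about 1 CPM rest on few reads. Within each of the 2 young day 21 groups every pair of libraries differed by more than sampling noise, so none was counted as a repeat deposit. Alternatives were RLE scaling, no filter, only the groups of the contrast, DESeq2 1.42.0 and leaving out each of the young day 21 lungs. Each untreated lung was left out for the comparison of saline with untreated lungs only. No day 14, day 28 or old lung was left out.

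The members and the gene lists were chosen with earlier results of these data known. Named genes are a panel (Col1a1, Tnc, Mmp12, Sftpc and the like), the 12 largest rises and 12 largest falls above an average log2 CPM of 1 without overlap, up to 4 members with the smallest p in each list, and the leading genes of each test of a difference between effects. Others are said to be chosen after their values were seen. The values of a few named genes are not reported here. Promoter sequences are from RefSeq, build GRCm38.p6.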

Additional observations from a re-analysis of the deposited data

Results flagged for a closer look

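In 38 of 786 sets of values checked (4.8%) 1 lung stood apart from the rest of its group, by a gap that took most of the range of the group. Chance flags about 1 in 20 groups, so these are given as values, in log2 CPM for genes and mean log2 CPM for list scores.

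Bleomycin lung 1 was the highest for Foxp3 (1.60) and the chaperone Calr (9.88) and the lowest for the lipid transporter Mfsd2a (4.07). Bleomycin lung 2 was the lowest for the adhesion protein Tns4 (1.95) and the highest for the scores of YAP and TAZ targets (7.57) and coagulation (6.04). Bleomycin lung 3 stood apart most often. It was the highest for Ctsd (10.99), the respiratory chain gene Uqcrc1 (7.14), the claudin Cldn18 (10.37), the mesothelial Msln (7.45) and the glycolysis score (5.95). It was the lowest for the endothelial genes Notch4 (6.97) and Eng (8.57), for Rora (5.74), the glial Cdh19 (-2.39) and the adventitial fibroblast score (4.74). Bleomycin lung 4 was the highest for the mitotic gene Cenpf (2.60) and the mast cell, basophil and eosinophil score (-0.65) and the lowest for Ackr1 (1.41).

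Saline lung 1 was the lowest for the muscle genes Sln (2.30), Actc1 (6.16), Tnnt2 (5.43) and Ckm (2.41), for the skeletal muscle score (-1.15), for Plin1 (2.23), Jchain (2.02) and Adh7 (2.85). Saline lung 2 was the highest for the WNT score (3.98) and the lowest for Bcl6 (5.64). Saline lung 4 was the highest for Tgfbr3 (7.19) and Lef1 (3.44) and the lowest for Gpnmb (4.81), Pdia3 (8.91), N4bp3 (5.72) and the type 2 cell score (9.21). Saline lung 5 was the highest for Cldn18 (9.82) and Lpl (8.08) and the lowest for the cytotoxic and natural killer score (1.0).

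The bleomycin effect differed between day 21 and day 14 in 4 genes by the test of the difference in edgeR, as day 21 minus day 14 on the log2 scale: Slc25a34 (-2.09), Myrip (-1.29), Sult1a1 (-1.13) and Tollip (-0.29).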

How the results depend on the processing

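No paired analysis was possible because the titles number every library once and no number recurs in both groups. The number of genes called at day 21, 6678, was 5749 to 6271 with 1 lung left out, 6663 with RLE scaling, 5802 with no filter, 7296 in a fit of the 9 lungs alone and 6725 by DESeq2. The 4 genes called for day 21 against day 14 became 0 with no filter, 0 in the groups alone and 18 by DESeq2. They became 0 to 3 with 1 young day 21 lung left out. In this and the next 2 comparisons no day 14, day 28 or old lung was left out. The 0 for day 28 against day 21 became 4 by DESeq2 and 0 to 1 with 1 young day 21 lung left out. The 1 was called without saline lung 2. The 0 for old against young became 32 in the groups alone, 10 by DESeq2 and 0 to 3 with 1 young day 21 lung left out. There, 1 was called without bleomycin lung 2, 3 without saline lung 2 and 1 without saline lung 4. The genes called for saline against untreated lungs (0.696% of those tested) became 1 in the groups alone, no fewer than 73 with 1 of the day 21 lungs left out, and 8 to 195 with 1 untreated lung left out, the last added after seeing the data. The causes of these differences were not tested. Of 321 named genes and their day 21 calls, 261 of 289 calls were kept under every alternative run, 28 were lost under at least 1 and 16 genes not called were called under at least 1, and no direction of a called value was reversed. Genes with few reads are limited by depth, as are the low-level lists (mast cells, skeletal muscle).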

Other observations

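Several lists were not counted above. Chemokine receptors were higher in 6 and lower in 2 of 21 (edgeR; 36.3% of all genes were called), with Ccr2, the receptor of Ccl2, at 34.02 ± 6.78 CPM (SD, n = 5) after saline and 61.9 ± 4.45 CPM (SD, n = 4) after bleomycin, a log2 fold change of 0.86 ± 0.22, and Cx3cr1, the fractalkine receptor, at 1.23 ± 0.19. Cxcr2, the neutrophil receptor, was at -1.10 ± 0.45 and varied between saline lungs, at 15.5 ± 16.6 CPM. The call was lost when any 1 of the 4 bleomycin lungs was left out, with no filter and in the fit of the 9 lungs alone, and without saline lung 2 the change was -0.18 (edgeR adjusted p = 0.791). Lymphatic markers were higher in 4 and lower in 1 of 7, with Mmrn1, a lymphatic multimerin, at 0.83 ± 0.17. Mesothelial markers were mostly not called, with 1 higher (Msln, mesothelin, 0.98 ± 0.27) and 2 lower of 10.

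Of 11 genes of germinal centres and lymphoid tissue the edgeR test called 3 higher and 1 lower, 36.4%, near the 36.3% of all genes. One of those higher, Il21, is near the floor, with 0 reads over the saline lungs and 14 over the bleomycin lungs. Bcl6, a germinal centre repressor that many other cells express, was lower (-0.48 ± 0.13). Genes of group 2 innate lymphoid cells were higher in 2 and lower in 2 of 11 (36.4% called), with Il1rl1, the IL-33 receptor, at 0.79 ± 0.22. Neuroendocrine and tuft cell genes were higher in 2 and lower in 2 of 10 (40% called). Skeletal muscle genes were lower in 1 of 8 (Ckm, -2.21 ± 0.62), and of 5 thymus genes none was called.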
